A study of Homo sapiens with 20 samples.

Results

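DDIT4, the sestrins SESN1, SESN2 and SESN3, and the 4E-binding proteins EIF4EBP1 and EIF4EBP2 form a group of genes that act against mTORC1 or against its main output, cap-dependent translation. They are 6 of the 19962 genes of the deposited count table, chosen by their identifiers with their changes in gene counts between these conditions in view. Their levels and the tests of their changes are therefore given as a description. A threshold passed below is no support for the choice of these genes. DDIT4 and SESN2 moved most: at 4 h of tunicamycin the recovery of DDIT4 RNA with IGF2BP3 was 7.61-fold that of the vehicle (95% interval 6.17 to 9.38), and that of SESN2 RNA 2.28-fold (1.98 to 2.63). Arsenite raised both as well, DDIT4 by 1.93-fold (1.42 to 2.62) and SESN2 by 2.41-fold (2.03 to 2.86), and lowered EIF4EBP2 to 0.636-fold (0.545 to 0.742). For DDIT4, SESN2 and EIF4EBP2 the share of counts in the shallow IgG libraries was not distinguishable from that with the antibody.

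All libraries came from HCT116, a human colorectal carcinoma line, in a derivative of genotype Tet-OsTIR1-PURO that expresses the OsTIR1 protein conditionally. All cells received 100 µM 4-thiouridine for 15 h and were crosslinked at 365 nm with 0.15 J/cm2, and RNA bound to IGF2BP3 was then sequenced (PAR-CLIP). The 5 conditions were DMSO for 4 h, tunicamycin (TM) at 5 µg/mL for 1 h, TM at 5 µg/mL for 4 h, PBS for 2 h, and arsenite at 250 µM for 2 h, with 3 anti-IGF2BP3 libraries and 1 IgG library each. TM blocks N-linked glycosylation and so stresses the endoplasmic reticulum, and arsenite is an oxidative stressor that the labels also name sodium arsenate. The treatment protocol in the labels gives only 4 h of tunicamycin, while the label of each sample gives 1 h or 4 h, and groups here are those of the single samples. The 1 h treatment has no vehicle of 1 h and was set against DMSO for 4 h.

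As background, mTORC1 is a kinase complex that couples growth factors and amino acids to protein synthesis. DDIT4 (REDD1) acts upstream of it through the TSC complex, which switches off the GTPase RHEB. Sestrins bind the GATOR2 complex and keep amino acids from activating mTORC1, and SESN2 is also a leucine sensor. EIF4EBP1 and EIF4EBP2 sit downstream: when mTORC1 does not phosphorylate them they hold the cap-binding protein EIF4E. DDIT4 and SESN2 are known targets of the stress transcription factor ATF4. IGF2BP3 is an oncofetal RNA-binding protein of the cytoplasm, and the IGF2BP family has been described to favour CAU followed by A, C or U in RNA.

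Stretches of these RNAs that lie in IGF2BP3 clusters are shown first, mostly from the regions with the most reads. The gene counts cover the whole gene and are not limited to these stretches. Clusters, which are the groups of overlapping crosslinked reads that the authors listed per library, were merged over the 15 anti-IGF2BP3 libraries where they overlapped. Each region was then reduced to the 30 bases with the most cluster coverage. Each cluster counted with all its reads over its whole length, and the middle window was taken among ties. The sequences are those of the deposited clusters, 5′ to 3′ on the transcribed strand in DNA letters, with coordinates of GRCh38, and capitals mark CATA, CATC or CATT.

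The main regions of DDIT4, at chr10:72273924-72276036 on the plus strand, lie near its 3′ end, and region 2, near the 5′ end, is shown because only stressed cells had a cluster there. Their core windows are chr10:72274209-72274238, chr10:72275367-72275396, chr10:72275678-72275707 and chr10:72275955-72275984.
DDIT4 region 2: tcctcaccatgcctagcctttgggaccgct
DDIT4 region 5: ggctgtgCATTggggacaCATAcccctcag
DDIT4 region 6: tttctgatcggagCATCactactgacctgt
DDIT4 region 7: tgttcatgaatacacttgatgttcaagtat

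For SESN2, at chr1:28259518-28282491 on the plus strand, the regions with the most reads have their core windows at chr1:28280958-28280987 and chr1:28281222-28281251.
SESN2 region 9: cactggaatggacagttCATTgcactgact
SESN2 region 10: tctctcccctgtCATTtccagatttCATTa

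SESN1, at chr6:108984309-109094846 on the minus strand, is represented by a region far from the annotated end, at chr6:108998581-108998610, and by the region with its most reads, at chr6:108987377-108987406. For EIF4EBP2, at chr10:70404145-70428618 on the plus strand, the regions with the most reads have their core windows at chr10:70421926-70421955 and chr10:70422521-70422550.
SESN1 region 3: tcagacctccttctgttagcaactactgca
SESN1 region 6: atttttctgtggaaaaccactgctggcaca
EIF4EBP2 region 4: tttcttctccctgtctcctgttccccttcc
EIF4EBP2 region 5: cttcttctgccactcctccctgcttgCATC

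Among the member regions with at least 20 reads, 19 of 30 held CATA, CATC or CATT in the core window (63.3%), searched on the transcribed strand only. Over all genes the same letters stood in 13752 of 25587 such windows (53.7%). The region of EIF4EBP1, with 21 reads, was left out of the member count because its sequence was not printed. The count over all genes had no such exclusion. The member regions are not independent of each other, and the difference was not tested. Of the windows printed, those of regions 5 and 6 of DDIT4, regions 9 and 10 of SESN2 and region 5 of EIF4EBP2 held the motif, and those of regions 2 and 7 of DDIT4, regions 3 and 6 of SESN1 and region 4 of EIF4EBP2 lacked it.

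The gene counts behind these values were small. Anti-IGF2BP3 libraries held 130478 to 1568406 counts, with PBS replicate 2 the smallest, and IgG libraries 5981 to 17503. All PBS and arsenite libraries carry 1 set label in their names, while replicates 1 and 2 of the DMSO and TM groups carry another and replicate 3 yet another, so DMSO and PBS levels were not tested against each other. Nothing states that replicates were separate cultures, so the spread may be technical in part. The epithelial markers EPCAM, KRT8, KRT18, KRT19 and CDH1 all had clusters, in 4 to 14 of the 15 libraries, and PTPRC, COL1A1, PECAM1 and ALB had none. RNA abundance was not analysed here, so a change in recovery cannot be divided into more RNA, more binding and background of the precipitation.

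DDIT4 (ENSG00000168209) had the widest range of levels, in relative terms, of the 6 members. In CPM (counts brought to a common library size, with TMM factors over the 15 libraries), the DMSO libraries gave 41.2, 49.1 and 31.4, those of TM at 1 h 18.5, 17.8 and 17.3, and those of TM at 4 h 254, 329 and 309.8. The 1 h libraries all lay below DMSO and the 4 h libraries all lay above it, with no overlap on either side. Of all genes tested, 15.3% did not overlap between TM at 1 h and DMSO, 20.5% between TM at 4 h and DMSO, 26.8% between the TM times and 43.7% between arsenite and PBS, and the same statements on other members are to be read beside these shares. PBS gave 60.9, 47.7 and 61.1 CPM and arsenite 93.9, 107 and 128, again without overlap. The order of the means ran from TM at 1 h (17.8 ± 0.627, SD, n = 3) through DMSO (40.5 ± 8.86), PBS (56.6 ± 7.72) and arsenite (109.8 ± 17.3) to TM at 4 h (297 ± 38.8). DMSO and PBS, neighbours in that order, overlapped in range.

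**Figure D1:**
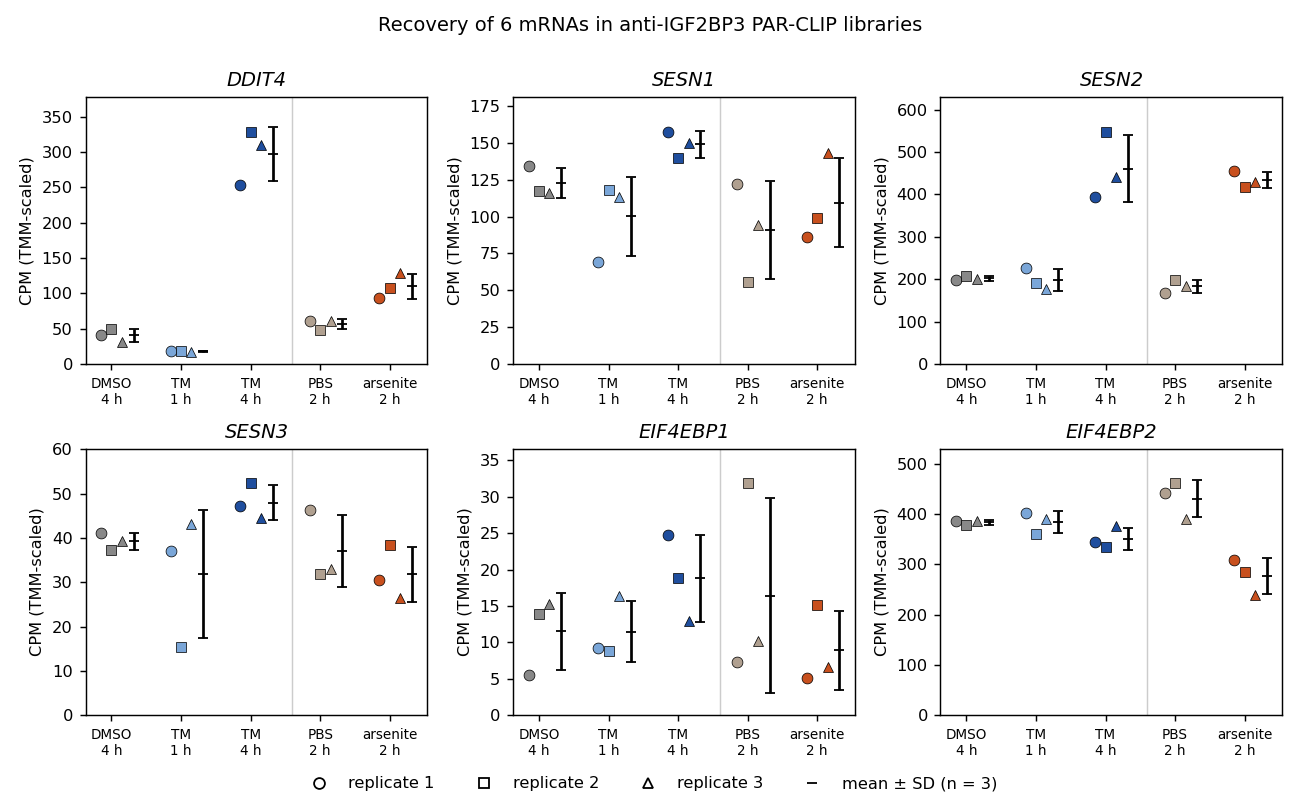
CPM of each member in the 15 anti-IGF2BP3 libraries, with the condition and its duration on the x axis, 1 symbol per library and the mean ± SD (n = 3) as a bar beside it. DDIT4 lies at 17.3 to 18.5 CPM at 1 h of TM and at 254 to 329 CPM at 4 h, SESN2 is high at 4 h of TM and in arsenite, and EIF4EBP2 is low in arsenite.

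The fall of DDIT4 at 1 h of TM was a log2 fold change of -1.16 (SE 0.29, 95% interval -1.74 to -0.58) and passed the threshold in edgeR's quasi-likelihood test. It rests on 4, 8 and 18 counts in the 1 h libraries against 15, 46 and 39 in DMSO. The call was lost with DESeq2 (-1.18), without any single 1 h library, and without DMSO replicate 1 or 2 (to -0.94 for the latter). Within the library set of replicates 1 and 2 the value was -1.37, also short of the threshold. The rise at 4 h was 2.93 (SE 0.15, interval 2.62 to 3.23), and 2.66 within that set. Between 1 h and 4 h, DDIT4 rose by 4.09 on the log2 scale (SE 0.20, interval 3.69 to 4.49), or 17.0-fold.

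Arsenite raised DDIT4 by 0.95 on the log2 scale (SE 0.22, interval 0.51 to 1.39). Set against the change at 4 h of TM, this was smaller, as the arsenite change minus the TM change was -1.99 (SE 0.30, interval -2.59 to -1.38) and passed the threshold. The stresses differ in agent, dose, duration, vehicle and library set, so the contrast cannot be assigned to any of these.

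SESN2 (ENSG00000130766), a leucine sensor upstream of mTORC1, rose in both stresses. Its libraries gave 198, 208 and 199.6 CPM in DMSO, 227, 191 and 177 at 1 h of TM, and 393, 547 and 439.9 at 4 h. The 1 h values lay on both sides of DMSO, and all 4 h values lay above both groups. PBS gave 168, 199 and 183 CPM and arsenite 454, 417 and 429, so that the arsenite libraries also stood clear of their vehicle. The means at 4 h of TM (460.2 ± 78.9, n = 3) and in arsenite (433 ± 19.0) overlapped in range, as did those of DMSO (202 ± 5.54), TM at 1 h (198 ± 25.5) and PBS (183 ± 15.2).

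On the log2 scale SESN2 changed by -0.10 at 1 h of TM (SE 0.13, interval -0.35 to 0.16), which did not pass. It rose by 1.19 at 4 h (SE 0.10, interval 0.98 to 1.40) and by 1.27 in arsenite (SE 0.12, interval 1.02 to 1.52), and both passed. The later time point exceeded the earlier by 1.29 (SE 0.11, interval 1.06 to 1.51), or 2.44-fold. The arsenite change minus the TM change was 0.07 (SE 0.17, interval -0.27 to 0.41), which did not pass and leaves a difference in either direction possible within that interval.

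SESN1 (ENSG00000080546), a sestrin known as a target of p53, moved little. It gave 134, 117 and 116 CPM in DMSO, 69.4, 118 and 113 at 1 h of TM and 157, 139 and 150.1 at 4 h. The 4 h libraries lay above DMSO without overlap, by 0.30 on the log2 scale (SE 0.13, interval 0.03 to 0.57), which did not pass the threshold. From 1 h to 4 h it rose by 0.46 (SE 0.15, interval 0.16 to 0.76), a call that was lost with DESeq2 (0.47), with no filter on low counts (0.44), within the set of replicates 1 and 2 (0.55), and without either TM 1 h replicate 1 (0.36) or replicate 3 (0.55) or TM 4 h replicate 1 (0.43) or replicate 3 (0.45). PBS gave 122, 55.6 and 94.3 CPM and arsenite 86.3, 98.8 and 143.3, overlapping, with a log2 fold change of 0.22 (SE 0.20, interval -0.17 to 0.61). Without arsenite replicate 3 that value turned to -0.09.

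SESN3 (ENSG00000149212), a sestrin under FOXO control, had 4 to 69 counts per library. Its means were 39.3 ± 1.91 CPM in DMSO, 31.9 ± 14.5 at 1 h of TM, 48.0 ± 3.99 at 4 h, 37.1 ± 8.03 in PBS and 31.8 ± 6.17 in arsenite (n = 3 each). The 4 h libraries (47.2, 52.3 and 44.4 CPM) lay above DMSO (41.2, 37.3 and 39.4), but the log2 fold change of 0.28 (SE 0.22, interval -0.17 to 0.73) did not pass. In arsenite it was -0.32 (SE 0.34, interval -0.99 to 0.35).

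EIF4EBP2 (ENSG00000148730), which holds EIF4E downstream of mTORC1, was lower in arsenite. It gave 387, 379 and 386 CPM in DMSO, 403, 359.7 and 389 at 1 h of TM, and 344, 334 and 376 at 4 h. The 4 h libraries lay just below DMSO, by -0.12 on the log2 scale (SE 0.09, interval -0.29 to 0.06), short of the threshold. PBS gave 441, 461 and 389.8 CPM and arsenite 309.6, 285 and 239, with all arsenite libraries below PBS. The fall in arsenite was -0.65 (SE 0.11, interval -0.87 to -0.43) and passed. The arsenite change minus the TM change was -0.54 (SE 0.15, interval -0.83 to -0.25). That call was lost without arsenite replicate 3, at -0.40 on the log2 scale.

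EIF4EBP1 (ENSG00000187840), the better studied 4E-binding protein, was close to the limit of these libraries, with 2 to 20 counts each. Its means were 11.5 ± 5.30 CPM in DMSO, 11.5 ± 4.18 at 1 h of TM, 18.8 ± 5.92 at 4 h, 16.4 ± 13.4 in PBS and 8.92 ± 5.39 in arsenite (n = 3 each). It failed the filter on low counts in the arsenite fit and was not tested there. At 4 h of TM its log2 fold change was 0.35 (SE 0.38, interval -0.41 to 1.1), so neither a rise nor a fall was detectable at this depth.

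**Figure D2:**
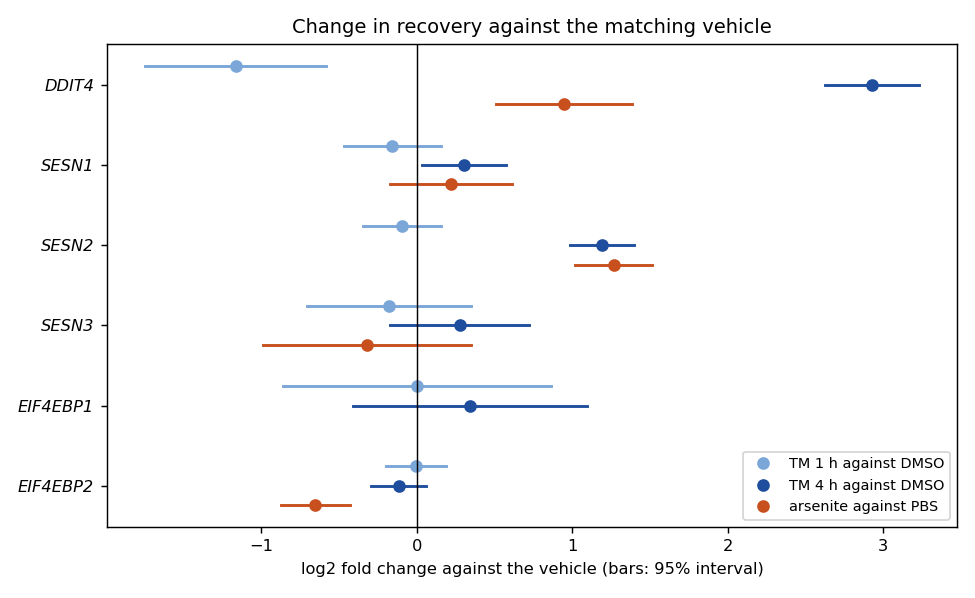
Log2 fold change of each member against its vehicle, on the x axis, with 1 point per comparison and its 95% interval as a bar. DDIT4 stands at -1.16, 2.93 and 0.95, and SESN2 at 1.19 and 1.27 for TM at 4 h and arsenite. The intervals of SESN3 and EIF4EBP1 all cross 0, and EIF4EBP1 has no arsenite value.

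Counted together, 1 of 6 members fell and 0 rose at 1 h of TM, where 0.551% of all genes tested were called in either direction. At 4 h, 2 of 6 rose and 0 fell, beside 5.11% of genes called. From 1 h to 4 h, 3 of 6 rose and 0 fell, beside 11.6%. In arsenite 2 rose and 1 fell among the 5 members tested, beside 34.8%, and the arsenite change differed from that of TM for 2 of 5, both lower, beside 18.3%. The members were chosen with these contrasts known, so the shares support nothing about the group. The median log2 fold change over the members tested was -0.13, 0.32, 0.46, 0.22 and -0.54 in these contrasts. Over all genes it lay between -0.02 and 0.01, which the TMM scaling largely fixes in advance. The medians support nothing about the group either. The 3 TM contrasts share libraries, and the last contrast shares libraries with the second and the fourth.

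Without an exon annotation, the cluster lists show where along each gene the reads lay, in genomic bases with introns included. They come from the same reads as the gene counts, and a cluster is listed only when enough reads gather, so shallow libraries list fewer. DDIT4 had 42 clusters with 908 reads in 7 regions. Regions 5, 6 and 7, whose core windows are printed above, held 30.3%, 30.4% and 22.6% of the reads and start 1418, 1633 and 1959 bases from the start of a gene that spans 2113 bases. The DMSO libraries listed 0, 29 and 13 cluster reads on DDIT4, those of TM at 1 h none at all, and those of TM at 4 h 83, 201 and 434. PBS listed 10, 0 and 9 and arsenite 6, 34 and 89.

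Upstream of these, regions 1 to 4 were listed only in stressed cells. They held 119 of 718 DDIT4 cluster reads at 4 h of TM (16.6%), in replicates 2 and 3, and 33 of 129 in arsenite (25.6%), in all 3 replicates. DMSO had 0 of 42 and PBS 0 of 19. With so few vehicle reads a share of similar size could have gone unlisted, and the difference was not tested.

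**Figure D3:**
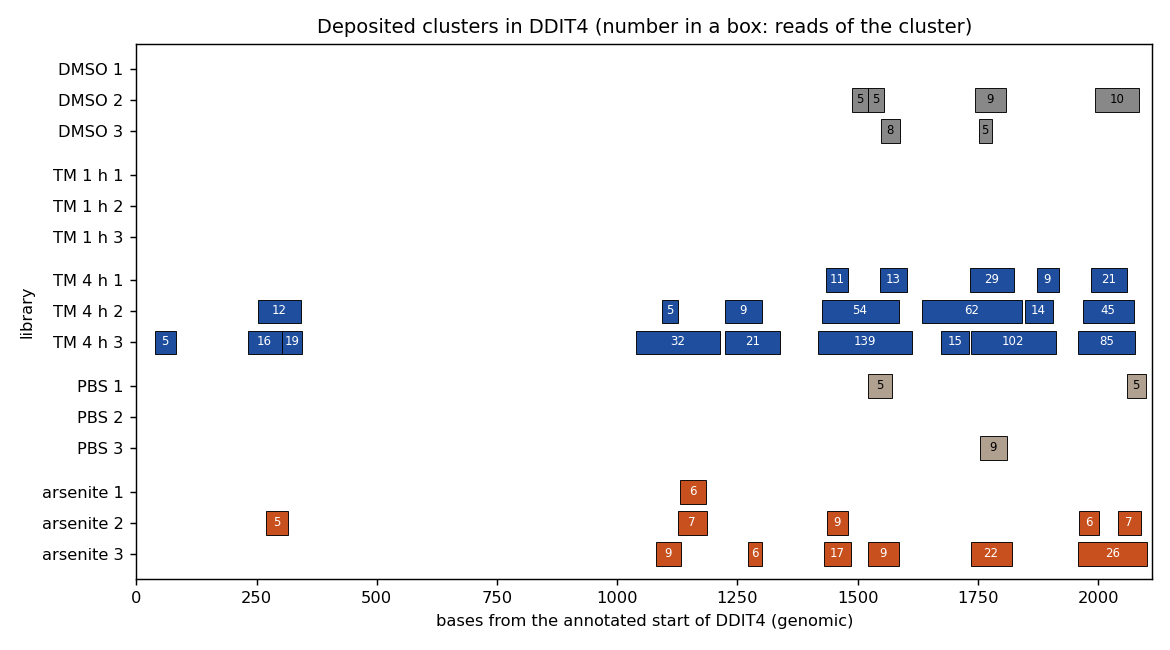
Deposited clusters on DDIT4, with bases from the annotated start on the x axis and 1 row per anti-IGF2BP3 library. Each box is a cluster and the number in it its reads. The TM 1 h rows are empty, and boxes before region 5, which starts at 1418 bases, appear only in TM 4 h and arsenite rows.

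SESN2 had 109 clusters with 2469 reads in 14 regions. Region 10, with CATT in its core window, held 55.4% of the reads and was listed in all 15 libraries, and region 9, adjoining it, held 24.3% and was listed in 14. They end 892 and 1398 bases before the annotated end of a gene that spans 22974 bases. Region 10 held 216 reads in DMSO, 135 at 1 h of TM, 556 at 4 h, 67 in PBS and 393 in arsenite, each summed over 3 libraries of unequal depth. Regions 1 to 8, further upstream, were listed only at 4 h of TM and in arsenite, each with under 20 reads. The vehicles and TM at 1 h had fewer SESN2 cluster reads. A share of similar size could have gone unlisted there, and the difference was not tested.

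The position of reads along SESN1 was looked at after the clusters had been seen, so it is described without a test. The share of its cluster reads that lay over 5000 bases upstream of the annotated gene end was 0%, 0% and 9.35% in DMSO (of 13, 67 and 107 reads) and 45.5%, 27.4% and 25.0% at 4 h of TM (of 22, 73 and 188 reads). The groups did not overlap. The difference was 29.5 percentage points. Leaving out any 1 library gave 23.1 to 33.3 percentage points. At 1 h of TM the share was 0% of 13 reads and 9.86% of 71, with no cluster in replicate 1.

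In arsenite the same SESN1 share was 100%, 100% and 52.6%, of 4, 20 and 97 reads, and PBS listed no SESN1 cluster to compare. Most of the distant reads fell in region 3, with 59 at 4 h of TM, 52 in arsenite and 10 in DMSO. Over all genes spanning more than 20000 bases the share also moved, from 26.6% ± 1.40 in DMSO to 29.4% ± 1.83 at 4 h of TM, and from 24.4% ± 1.04 in PBS to 39.0% ± 0.586 in arsenite (SD, n = 3). Whether the shift on SESN1 exceeds that of other genes was not tested.

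**Figure D4:**
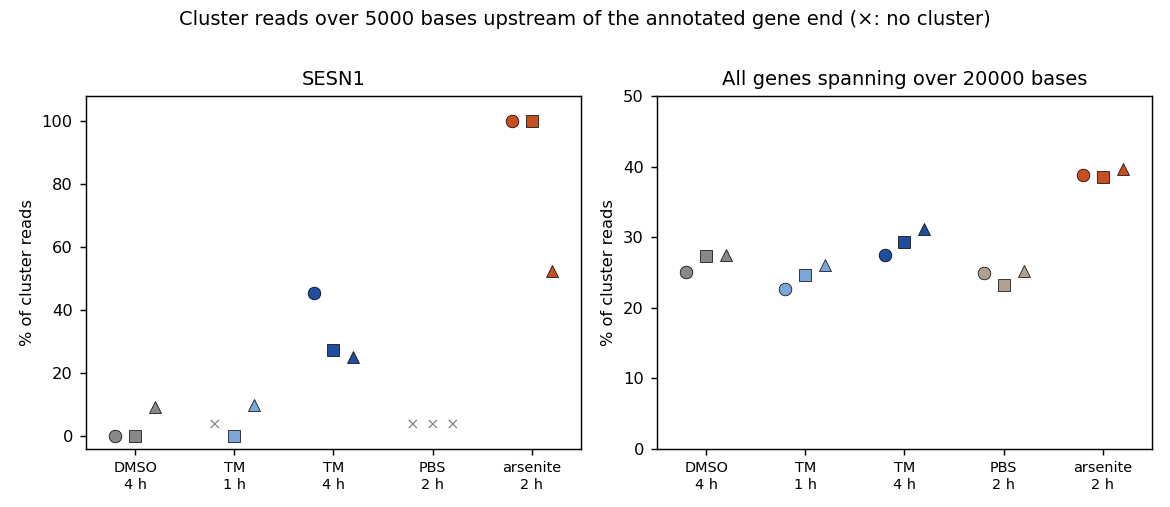
Percent of cluster reads over 5000 bases upstream of the annotated gene end, for SESN1 (left) and all genes spanning over 20000 bases (right), with 1 symbol per library (circle, square and triangle for replicates 1, 2 and 3) and a cross where a library listed no cluster. SESN1 reaches 25.0% to 45.5% at 4 h of TM and at most 9.35% in DMSO. The panels have different y axes.

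EIF4EBP2 carried its reads over many sites, 185 clusters with 1737 reads in 35 regions. Region 4 and the nearby region 5 held 22.3% and 25.1%, and their core windows, printed above, are both rich in pyrimidines. Most of its reads lay over 5000 bases from the annotated end, 54.5% to 100% per library where any were listed, whereas SESN2 had at most 5.08% there. This compares genomic positions and not places within the mature RNAs. SESN3 had 3 clusters, each in a single library, and EIF4EBP1 had 3 clusters with 21 reads in a single region, in replicate 3 of DMSO, TM at 1 h and TM at 4 h.

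T-to-C conversion, the mark of a crosslinked 4-thiouridine, did not enter the choice of members. It was compared where each library had at least 20 events on a member, which gave 6 comparisons. On EIF4EBP2 the converted share was 7.06% ± 0.228 of events in DMSO and 7.81% ± 0.410 at 4 h of TM, with no overlap (p = 0.10, two-sided exact permutation test, adjusted p = 0.60). With clusters of at least 10 reads that difference was 2.31 instead of 0.75 percentage points, with an SD of 1.76 at 4 h of TM. At that cut TM 4 h replicate 1 kept 1 EIF4EBP2 cluster of 12 reads, and DMSO replicate 1 kept 1 of 10 reads. Over all clusters the share was 7.99%, 7.72% and 7.79% in DMSO, 8.67%, 8.38% and 7.66% at 4 h of TM, 7.95% to 8.13% in PBS and 8.63% to 8.81% in arsenite, and its part in the members' values was not tested. SESN2 had 7.81% ± 0.355 in DMSO, 8.34% ± 2.22 at 1 h and 8.02% ± 0.166 at 4 h, and 7.96% ± 0.698 in PBS against 8.35% ± 0.412 in arsenite. SESN1 had 8.33% ± 0.356 in DMSO and 9.28% ± 1.69 at 4 h, a difference of 0.95 percentage points that was 0.0080 without TM 4 h replicate 2. None of the 6 differences passed, and with 3 against 3 libraries none could.

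The rest of the pathway was followed through cluster reads summed per gene, since the count table's identifiers could not be paired with symbols for genes other than the members. Of 73 listed genes of the TSC complex, mTORC1, amino acid sensing, growth factor input, translation, and autophagy and lysosome targets, with the DDIT4 paralogue DDIT4L, 52 had clusters. At 4 h of TM edgeR's quasi-likelihood test called 0 of the 32 tested, while 1 higher and 1 lower had an unadjusted p under 0.05, and it called 0.215% of all genes. In arsenite it called 1 of 17 higher and 1 lower, beside 12.1% of all genes. That count is near the share over all genes and shows nothing particular to the pathway. The lower gene was EIF4E, the cap-binding protein that 4E-binding proteins hold, at 649 ± 121 CPM of cluster reads in arsenite against 1625 ± 257 in PBS (n = 3), a log2 fold change of -1.32 (SE 0.21). The higher gene was EIF4G3, a scaffold that binds EIF4E, at 89.5 ± 16.1 CPM of cluster reads in arsenite. It had no listed cluster in PBS, whose libraries held 42699 to 244475 cluster reads against 218140 to 828783 in arsenite, so it entered the fit through arsenite alone and its call is no measure of a change. With library totals as the only scaling 3 pathway genes were called in arsenite.

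The genes most like a member were found by the root mean square difference of centred log2 CPM over the 15 libraries, among 3337 genes. For DDIT4 these were ENSG00000128590_5 (0.55) and ENSG00000101255_11 (0.59), where the median gene differed by 1.33. For EIF4EBP2 they were ENSG00000137168_8 (0.11) and ENSG00000134308_14 (0.12), where the median was 0.30. SESN2 had its nearest genes at 0.24 and SESN1 at 0.22, against medians of 0.66 and 0.44.

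IgG libraries gave the background of the precipitation. Pooled over 5 libraries they held 6 DDIT4 counts of 52256, or 0.0115% (exact Clopper-Pearson 95% interval 0.00421% to 0.0250%), beside 0.0123% in the pooled anti-IGF2BP3 libraries. SESN2 had 15 counts, 0.0287% (0.0161% to 0.0473%), beside 0.0307%, and EIF4EBP2 had 13, 0.0249% (0.0132% to 0.0425%), beside 0.0346%. In the IgG library of TM at 4 h, DDIT4 had 4 of 11542 counts, 0.0347% (0.00944% to 0.0887%), beside 0.0301% with the antibody in that condition. It had 2 of 17503 counts in the IgG library of PBS, 0.0114% beside 0.00574% with the antibody. In the IgG libraries of DMSO, TM at 1 h and arsenite it had 0. In the IgG library of TM at 4 h, SESN2 had 10 of 11542 counts, 0.0866% (0.0416% to 0.159%), beside 0.0454% in the anti-IGF2BP3 libraries of that condition. The other IgG libraries held 1 SESN2 count in DMSO, 0 at 1 h of TM, 1 in PBS and 3 in arsenite. SESN1 had 1 IgG count, a share of 0.00191% (4.84e-05% to 0.0107%), beside 0.0120%. SESN3 had 2 counts, 0.00383% (4.64e-04% to 0.0138%), beside 0.00377%. EIF4EBP1 had none, which allows a share of up to 0.00574%, beside 0.00128%. These intervals cover counting error only. For DDIT4, SESN2 and EIF4EBP2 the share in IgG was not distinguishable from that with the antibody at this depth, and the same held for SESN3 and EIF4EBP1. No IgG library listed a cluster on any member, but these lists held only 354 to 2762 cluster reads in all, too few to bear on the members.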

How the data were processed

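The authors deposited raw counts per gene and library, and a list of clusters per library with position, sequence, read count and conversion events, also counts. Per the submitters' processing notes the tools were bcl2fastq 2.20.0.422, UMI-tools 1.1.1, Trimmomatic 0.30, Bowtie 0.12.7 and featureCounts 2.0.1, with builds GRCh38.p13 and hg38; the cluster caller is not given in the sources used here. How reads of overlapping genes were counted is not stated. The members and lists were chosen with earlier results of these data known.

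Counts were fitted with edgeR 4.0.16 in R 4.3.3 (filterByExpr, TMM, quasi-likelihood test, two-sided, Benjamini-Hochberg over all genes tested, threshold 0.05). The 9 DMSO and TM libraries shared a fit, PBS and arsenite had their own, and 12 libraries gave the difference of the stresses. Scripts were tested on simulated data. DESeq2 1.42.0, other scalings, no filter, a replicate block, left-out libraries and 1 library set were alternatives. The rule for other genes named a pathway gene only if it was called and its values did not overlap, and the 2 genes nearest to each member with a mean of at least 50 counts.

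A cluster was given to the gene that holds its midpoint on its strand in the RefSeq table (GRCh38). The strand came from RefSeq promoter entries for 15843 genes and from most cluster reads for 1595 others, EIF4EBP1 among them. Of 497 clusters in RefSeq promoter windows, all 497 matched in sequence. The IgG cluster lists of the PBS and arsenite conditions carry names that are swapped against their samples, and the attachment to samples was followed.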

Additional observations from a re-analysis of the deposited data

Results flagged for a closer look

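For 5 results the change differed between time points or between stresses by a test of the difference itself, edgeR's quasi-likelihood test of the contrast over all genes. Between 1 h and 4 h of TM the change against DMSO differed by 4.09 on the log2 scale for DDIT4, by 1.29 for SESN2 and by 0.46 for SESN1. All 3 of the 4 h libraries lay above all 3 of the 1 h libraries for each of these genes, as was the case, in either direction, for 26.8% of all genes tested. Between arsenite and 4 h of TM the change differed by -1.99 for DDIT4, which rose in both stresses, and by -0.54 for EIF4EBP2, which fell in arsenite. The SESN1 call was lost in 7 of 12 alternatives, and the EIF4EBP2 call in 1 of 17. The contrast of stresses compares libraries of different sets and vehicles, which cannot be told apart from the stress. The members were chosen with these values in view, so the tests are a description.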

How the results depend on the processing

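Over the alternatives run, 326 values of members kept their direction and, where they had an adjusted p, their side of the threshold. Another 15 lost their call and 12 changed sign. DESeq2 gave no adjusted p for some values of EIF4EBP1 and SESN3, and these are among the 326 by direction alone. DDIT4 and SESN2 at 4 h of TM and in arsenite, and EIF4EBP2 in arsenite, kept their calls under every alternative. The calls lost were those of DDIT4 at 1 h of TM (-1.40 to -0.94 without single libraries), of SESN1 from 1 h to 4 h (0.36 to 0.55) and of EIF4EBP2 between the stresses (-0.60 to -0.40). With DESeq2 the genes called numbered 6 (46 with edgeR) at 1 h of TM, 151 (426) at 4 h, 502 (967) between the times, 1233 (2310) in arsenite and 854 (1427) between stresses. With replicates 1 and 2 alone they numbered 16, 129 and 488 in the 3 TM contrasts, and without single libraries 13 to 41, 178 to 431 and 523 to 859; the low ends of the first and second came without DMSO replicate 3 and that of the last without TM 1 h replicate 3. Fewer samples enter those fits; the cause of the DESeq2 difference was not tested. Values that changed sign were all short of the threshold: at 1 h of TM those of EIF4EBP1 (-0.013 with no filter, -0.0009 with DESeq2, -0.55 to 0.22 without single libraries), EIF4EBP2 (-0.0333 to 0.0376), SESN2 (-0.15 to 0.005) and SESN3 (-0.78 to 0.11), and those of SESN1 in arsenite (-0.0885 to 0.48) and between stresses (-0.40 to 0.19). The difference in converted share at 1 h of TM ranged from -0.71 to 1.43 percentage points for SESN2 and from -0.021 to 0.49 for EIF4EBP2, and at 4 h from 0.0080 to 1.64 for SESN1. With clusters of at least 10 reads, SESN1 kept 355 of 675 cluster reads, EIF4EBP2 904 of 1737, and SESN3 and EIF4EBP1 none. Correlations of same-numbered deviations lay between -0.05 and 0.06. Gene counts were small, so low correlations cannot show whether or not the replicate numbers pair the samples. With the replicate block 43, 371, 902, 2111 and 1247 genes were called, and no member's call changed.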
